A study of Drosophila melanogaster with 2 samples.

Results

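Translation initiation factor genes were taken as all protein-coding genes of the Ensembl dm6 annotation whose symbol begins with eIF, which gave 44 of the 13945 protein-coding genes on the 6 chromosome arms 2L, 2R, 3L, 3R, 4 and X. They encode single factors, the subunits of multi-subunit factors, the eIF4E family of cap-binding proteins and its relative eIF4EHP, and the annotation's symbols were the sole criterion. A factor filed under another symbol, such as the eIF5A homologue eEF5, is therefore not among them. The binding of Xrp1, a basic leucine zipper (bZIP) factor, was measured in whole Drosophila melanogaster embryos aged 8 to 24 hours by chromatin immunoprecipitation and sequencing (ChIP-seq). The embryos came from transgenic flies with a targeted Xrp1 insertion that yields an Xrp1-eGFP fusion, eGFP being a green fluorescent tag, and chromatin sheared to 200 to 800 bp was precipitated with an antibody to GFP. There was 1 group, with 2 biological replicates of 1 technical replicate each, and no other genotype, stage or treatment was analysed here. The labels do not say whether the replicates came from separate collections of embryos. The values are peaks of a tagged protein averaged over all cells of the embryo, so a peak in few cells and a weak peak in many cannot be told apart, and the read depth is unknown.

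Initiation brings a ribosome to the start codon of an mRNA. The eIF4 factors recognise and unwind the capped end of the mRNA, eIF2 delivers the initiator tRNA and is recharged with GTP by eIF2B, eIF3 holds the small ribosomal subunit to the mRNA, eIF1, eIF1A and eIF5 govern the choice of start codon, and eIF5B and eIF6 act on the joining of the large subunit. Phosphorylation of eIF2 blocks eIF2B, and this lowers protein synthesis in the integrated stress response. Xrp1 is known in Drosophila from cell competition, where cells with 1 defective copy of a ribosomal protein gene grow poorly and are lost beside normal cells, and from its induction when translation is disturbed.

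Xrp1-eGFP peaks were found at the promoters of 14 initiation factor genes, namely eIF1, eIF1A, eIF2A, eIF2D, eIF2beta, eIF3a, eIF3b, eIF3c, eIF3h, eIF3k, eIF3m, eIF4G2, eIF5B and eIF6. A gene is called occupied here when the authors' conservative list of both replicates holds a peak whose summit, its highest point, is at most 500 bp from an annotated transcription start site (TSS) of the gene. The 14 genes were 31.8% of the 44 members, against 23.2% of all protein-coding genes (3234 of 13945). Weighting all protein-coding genes to the members' numbers of TSSs gave 23.6%, and weighting them to the members' share with a divergent coding neighbour, a gene on the other strand that starts within 1000 bp upstream, gave 25.8%. By the members' roles, occupied genes numbered 6 of 16 for the eIF3 complex, 3 of 5 for delivery of the initiator tRNA, 3 of 4 for start codon selection and subunit joining by eIF1, eIF1A, eIF5 and eIF5B, 1 of 1 for eIF6, 1 of 13 for cap recognition and helicase function, and 0 of 5 for eIF2B. The same description by each replicate's own thresholded list gave 14 members (31.8%, against 23.0% of all protein-coding genes) in replicate 1 and 7 members (15.9%, against 14.6%) in replicate 2. The lists differ in length, with 7520 peaks in replicate 1 and 4402 in replicate 2. With peaks of any strength from the authors' ranked list, to which no threshold was applied, 36 members (81.8%) had a summit within 500 bp, against 67.3% of all protein-coding genes.

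**Figure D1:**
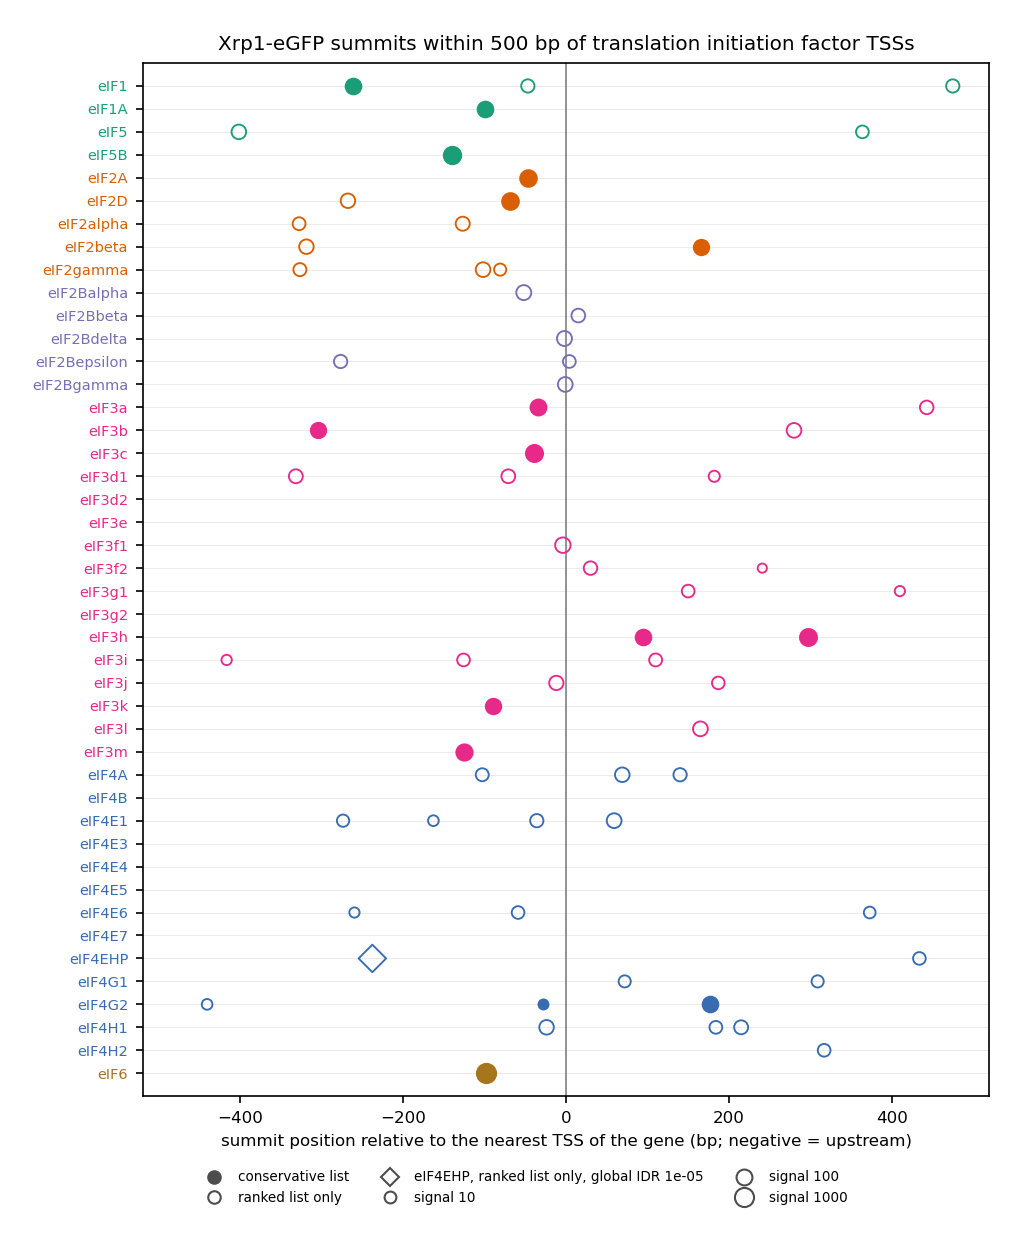
Position of every summit within 500 bp of a TSS (x axis, bp, negative upstream) for the 44 initiation factor genes (rows, coloured by role), with the symbol's size following the log of the authors' signal. Filled circles are in the conservative list and open circles in the ranked list alone; 8 rows are empty, the 5 eIF2B rows hold open circles only, and the open diamond is the peak near eIF4EHP with a signal of 1342.

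Occupancy was also set out by the number of TSSs of a gene and by divergent neighbours. Among the 29 members with 1 TSS, 6 were occupied (20.7%, against 18.0% of all protein-coding genes with 1 TSS). Among the 13 with 2 TSSs, 8 were occupied (61.5%, against 32.3%), and neither of the 2 members with 3 or more, eIF4A and eIF4E1, was occupied (0%, against 49.96%). A divergent coding neighbour was present for 47.7% of members, against 36.2% of all protein-coding genes. Of the 21 members with one, 8 were occupied (38.1%, against 37.8% of such genes), and of the 23 members without one, 6 were occupied (26.1%, against 14.9%). By chromosome arm, occupied members were 1 of 3 on 2L, 5 of 9 on 2R (55.6%, against 22.8% of all protein-coding genes there), 4 of 11 on 3L (36.4%, against 24.5%), 4 of 13 on 3R (30.8%, against 23.6%), 0 of 1 on 4 and 0 of 7 on X (against 21.9%).

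**Figure D2:**
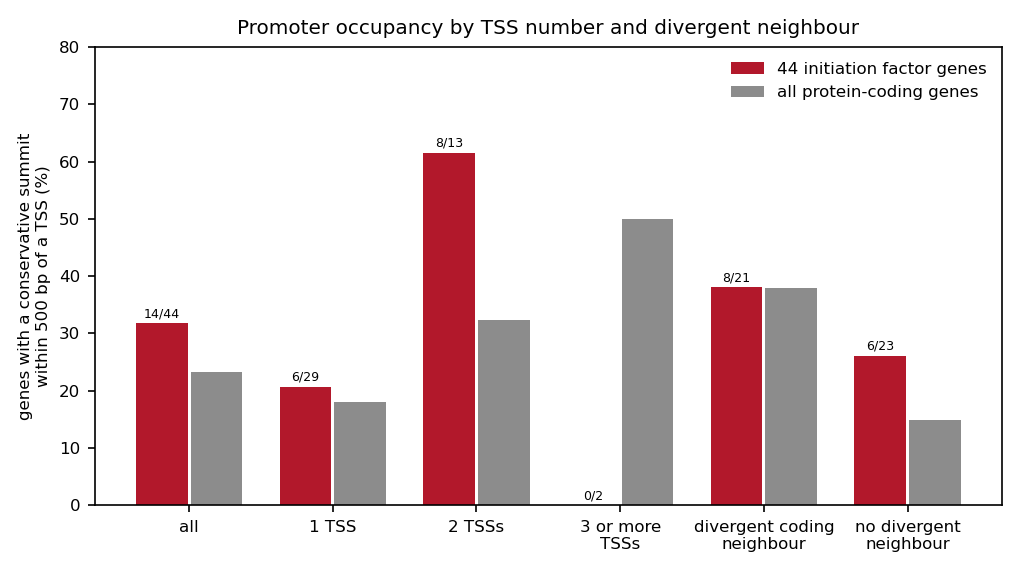
Share of genes that were occupied (y axis, %) for the 44 initiation factor genes (red) and all protein-coding genes (grey), in total, by number of TSSs and by divergent coding neighbour; the fractions are occupied members over members. The shares of the 2 gene sets differ by less than 1 percentage point among genes with a divergent neighbour, at 38.1% and 37.8%.

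At the cap, peaks were few but included the highest ranked of any member. eIF4EHP binds the cap without binding the eIF4G scaffold and represses chosen mRNAs in the early Drosophila embryo. The ranked list of the replicate comparison held a peak at chr3R:24108984-24109389 (dm6) with a signal of 1342, rank 49 of 90973, and a global irreproducible discovery rate (IDR, the expected share of peaks that do not recur between replicates) of 1e-05, the lowest value the lists hold. Its summit was intergenic, 238 bp upstream of the TSS of eIF4EHP and 138 bp upstream of that of the divergent gene CG18428. In the replicates' own ranked lists the peak had a signal of 897, rank 46, in replicate 1 and a signal of 449, rank 58, in replicate 2. It ranked near the top in both replicates, yet it was absent from all 4 thresholded lists used here, and eIF4EHP does not count as occupied. The same held for an intronic peak of eIF4EHP at chr3R:24106253-24106616, 2525 bp downstream of the TSS, with a signal of 142. It also held for a peak beyond the 3' end of eIF4A, the helicase that unwinds 5' leaders, at chr2L:5986022-5986385 with a signal of 127. Over the 6 arms, 148 of 7682 ranked peaks whose global IDR was 0.01 or less were absent from the conservative list, and 0 of the 148 overlapped a peak of another thresholded list. A further file, of a kind that the deposited notes do not name, enters the thresholded lists, and its part in these absences was not tested.

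The sequence around the eIF4EHP summit is shown because it carries the strongest peak of any member promoter and is poor in G and C, which made up 16.8% of the window reaching 50 bp to either side of it, against a median of 32.7% over the 2737 conservative peaks at protein-coding promoters. The letters are the 81 bases around the summit from the RefSeq dm6 reference, chr3R:24109158-24109238, minus strand, 5' to 3' as eIF4EHP is read, with TATAAA, read on either strand, in capitals.
eIF4EHP: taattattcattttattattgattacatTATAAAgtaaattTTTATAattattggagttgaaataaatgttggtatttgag
None of the bZIP motifs TTGCATCA, TTGCGCAA, TTGCNNAA, TTGCNNCA, TGACGTCA and TGACGCAA lay in that window on either strand, and TGACTCA, the AP-1 site, lay 40 bp from the summit.

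The remaining cap and helicase genes had 1 occupied member, eIF4G2. The eIF4G proteins are scaffolds that join the cap-binding eIF4E to the helicase eIF4A, and eIF4G2 is a paralog known in Drosophila for its need in spermatogenesis. Its summit on 3R lay 177 bp downstream of a TSS, in the 5' UTR, with a signal of 91.1 in the conservative list, 46.4 in replicate 1 and 38.4 in replicate 2. The gene CG33111 starts at the same position, so the peak cannot be given to 1 of them. A second conservative peak, 28 bp upstream with a signal of 4.61, rests on the same peaks of each replicate. The general scaffold gene eIF4G1 had only weak ranked summits, with a highest signal of 12.1 and a global IDR of 0.0756.

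Of the eIF4E family, the canonical cap-binding gene eIF4E1 had 4 ranked summits, the strongest 59 bp downstream with a signal of 51.3 and a global IDR of 0.0558. eIF4E6 reached 15.4 at a summit 3 bp from CG1951, and eIF4E3, which acts in Drosophila spermatogenesis, eIF4E4, eIF4E5 and eIF4E7 had no ranked summit within 500 bp. eIF4A had a strongest summit of 44.4 at 69 bp downstream. eIF4H1 had 44.5 and eIF4H2 had 15.9, both genes being related to a cofactor that stimulates eIF4A in mammals. eIF4B, another such cofactor, had no ranked summit within 500 bp, and the nearest conservative summit was 1845786 bp away.

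Initiator tRNA delivery had conservative peaks at the genes of the alternative factors and of 1 subunit of eIF2. eIF2D, which can bring tRNA to the ribosome without eIF2, had a summit 69 bp upstream on 3R, with a signal of 188 in the conservative list (rank 2177 of 7537), 146 in replicate 1 and 43.2 in replicate 2. eIF2A, another factor able to bind initiator tRNA, had a summit 47 bp upstream of a TSS on 3L, in a 5' UTR, with a signal of 173, and 87.2 in replicate 1 and 79.7 in replicate 2. Both peaks were in both replicates' thresholded lists. The eIF2 subunit gene eIF2beta had a weaker intronic summit 166 bp downstream of its TSS on 3L, with a signal of 75.4, and 47.2 in replicate 1 and 29.9 in replicate 2; it was in the thresholded list of replicate 1 alone. The genes of the other eIF2 subunits were not occupied. eIF2alpha, whose phosphorylation stops recycling of eIF2, had a strongest ranked signal of 32.7 with a global IDR of 0.202. eIF2gamma, which binds GTP and shares a start with the histone methyltransferase gene Su(var)3-9, had 47.9 with a global IDR of 0.0393, and the TSS of Set was nearer, at 8 bp.

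None of the 5 eIF2B genes, which encode the exchange factor that recharges eIF2 with GTP, was occupied. The share over all protein-coding genes was 23.2%, and 5 genes are too few to be told apart from it. Each eIF2B gene had a weak ranked summit within 500 bp of a TSS, where 67.3% of all protein-coding genes had one of any strength. The strongest ranked signals were 57.1 for eIF2Balpha (52 bp upstream, global IDR 0.0154, with Vps13B nearer at 38 bp) and 56.6 for eIF2Bdelta (2 bp upstream, global IDR 0.0337, with roh at 56 bp). eIF2Bgamma followed with 49.8 (1 bp upstream, global IDR 0.249), eIF2Bbeta with 27.0 and eIF2Bepsilon with 21.8, where Ocrl was nearer at 170 bp. For 4 of the 5 genes the strongest summit was at most 52 bp from a TSS. In the replicates' own ranked lists, eIF2Bepsilon had no summit within 500 bp in either replicate. There eIF2Bbeta had none in replicate 2, and eIF2Bgamma had none in replicate 1. The strongest peak of the whole conservative list lay 681 bp upstream of eIF2Bbeta, on X at chrX:2703701-2704073, with a signal of 3073. Its signal was 1938 in replicate 1 and 1143 in replicate 2, rank 2 in each. That summit was 38 bp upstream of Ugalt, the divergent neighbour of eIF2Bbeta, and the peak counts for eIF2Bbeta only where any part of a peak within 500 bp is allowed, or a distance of 1000 bp. Conservative summits also lay 736 bp upstream of eIF2Bdelta (signal 191) and 1283 bp upstream of eIF2Bgamma (signal 192), nearer to CG30414 and CG8187.

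Of the genes for start codon selection and subunit joining, eIF5B had the strongest peak. eIF5B is the GTPase that joins the large subunit, and its summit lay 140 bp upstream of a TSS on 3L, in the 5' UTR of a longer transcript, with a signal of 300.0 (rank 1136), and 200 in replicate 1 and 125 in replicate 2. The gene held 7 conservative summits in all, of which 6 were intronic, 9913 to 27766 bp downstream of a TSS. The strongest of these, 21928 bp downstream, had a signal of 319, above that of the promoter peak, with 235 in replicate 1 and 89.9 in replicate 2. eIF1A, which with eIF1 holds the scanning subunit open, had a summit 100 bp upstream on 3R with a signal of 94.3, and 64.6 in replicate 1 and 23.9 in replicate 2; the divergent gene Vps39 starts 119 bp from it. eIF1 had a summit 262 bp upstream on 3L with a signal of 92.9, and 72.4 in replicate 1 and 33.9 in replicate 2; the ribosomal protein gene RpL28 was nearer, at 119 bp. The peaks of eIF1A and eIF1 were in the thresholded list of replicate 1 alone. eIF5, which prompts GTP hydrolysis by eIF2, had a strongest ranked signal of 45.8, 402 bp upstream, with a global IDR of 0.209; exd was nearer, at 92 bp, and CG46312 shares the eIF5 start.

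eIF3 is the largest initiation factor, and 6 of its 16 genes were occupied, among them eIF3a, eIF3b and eIF3c. The share over all protein-coding genes was 23.2%. eIF3c had a summit 40 bp upstream with a signal of 234, and 164 in replicate 1 and 74.6 in replicate 2. eIF3a had a summit 35 bp upstream with a signal of 111, and 67.8 in replicate 1 and 45.0 in replicate 2; the divergent gene CG1074 starts at the same distance from it. eIF3b had the weakest of the members' strongest peaks, 305 bp upstream with a signal of 73.3, and 36.3 in replicate 1 and 35.4 in replicate 2. It was in neither replicate's thresholded list, and the microtubule minus-end gene Patronin was nearer, at 42 bp. The other occupied genes of the complex were eIF3h (2 summits, 297 and 94 bp downstream, signals 227 and 90.2), eIF3m (126 bp upstream, 134) and eIF3k (90 bp upstream, 77.6). The replicates' signals were 171 and 56.6 at the stronger eIF3h summit, 99.2 and 32.9 at eIF3m and 56.0 and 26.8 at eIF3k, replicate 1 before replicate 2. The divergent gene senju starts 360 bp from the stronger eIF3h summit, and CG8323 starts 100 bp from the eIF3m summit.

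Among the eIF3 genes that were not occupied, eIF3f1 came closest. Its summit 4 bp upstream had a signal of 77.0, higher than those of the occupied eIF3b and eIF2beta, but a global IDR of 0.0234, and it was in the thresholded list of replicate 1 and in the authors' second list of both replicates. The strongest ranked signals of eIF3l, eIF3j, eIF3d1, eIF3i and eIF3g1 were 50.8, 38.3, 30.1, 18.1 and 15.8. eIF3e had no ranked summit within 500 bp. The complex has numbered gene pairs, and in each the member numbered 1 had the higher value, with 77.0 for eIF3f1 and 24.5 for eIF3f2, while eIF3d2 and eIF3g2 had no ranked summit. Stronger conservative peaks lay farther from eIF3d1 (1311 bp upstream, signal 603, 167 bp from GILT2) and eIF3g1 (1341 bp downstream, signal 315, 119 bp from Smyd3).

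eIF6, which binds the large ribosomal subunit and keeps it from joining the small subunit too early, had the strongest conservative promoter peak of any member. Its summit on 2R (chr2R:23850246-23850548) lay 99 bp upstream of the TSS with a signal of 1236, rank 57 of 7537. The signal was 781 in replicate 1 (rank 69) and 455 in replicate 2 (rank 54). The antisense RNA gene asRNA:CR45928 has a TSS nearer to the summit, at 70 bp, so the peak does not count for eIF6 where each summit is given to its nearest TSS alone. No other occupied member came near this rank, the next being eIF5B at 1136.

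Fewer of these peaks passed the threshold in replicate 2. For the strongest peak of each of the 14 occupied members, the replicates' summits were a median of 28 bp and at most 93 bp apart. Each replicate's summit came from its ranked list, as the nearest among peaks that overlap the peak of both replicates. The distances are thus kept short by this choice and do not measure how well the replicates agree on position. Of these 14 peaks, 7 were in both replicates' thresholded lists (eIF6, eIF5B, eIF3c, eIF2D, eIF2A, eIF3m and eIF3a), 6 in that of replicate 1 alone, 0 in that of replicate 2 alone, and eIF3b in neither. The signal of replicate 1 divided by that of replicate 2 was between 1.03 and 3.38 (median 1.91), but each list has its own scale and the ratio does not compare amounts of binding. With 2 replicates of 1 group no test of a difference was possible.

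**Figure D3:**
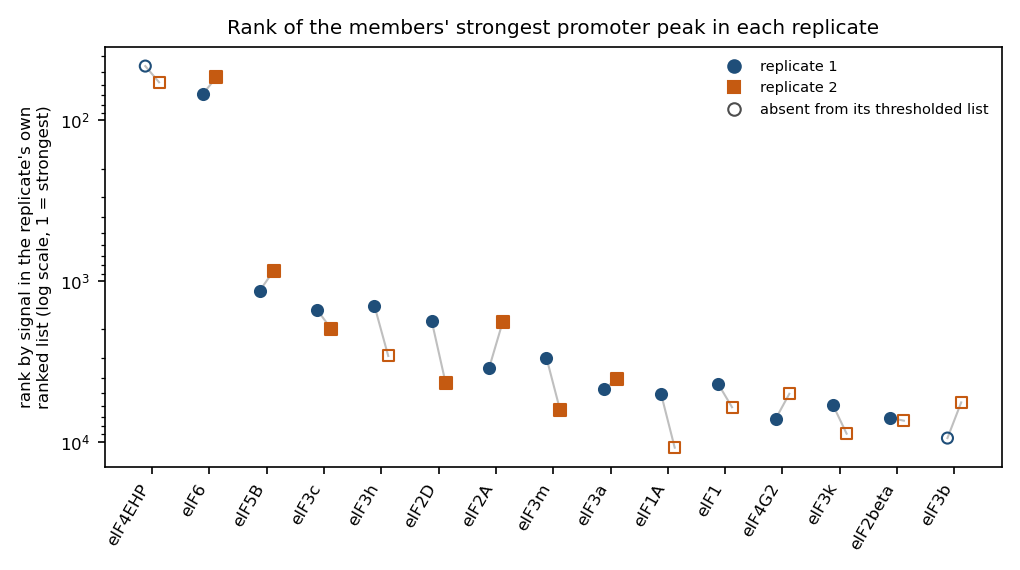
Rank by signal (y axis, log scale, 1 is the strongest) of the strongest promoter peak in the ranked list of replicate 1 (blue circles) and of replicate 2 (orange squares) for the 14 occupied members and eIF4EHP, ordered by signal in the list of both replicates. Open symbols are peaks absent from that replicate's thresholded list; eIF4EHP at ranks 46 and 58 and eIF6 at 69 and 54 stand apart from the others.

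At the median the members' peaks were weaker than those of other promoters, and their signed position was less far upstream, within wide ranges. The signed position is not a distance, since summits on the 2 sides of a TSS offset each other. The strongest signal per occupied gene had a median of 122 over the 14 members (range 73.3 to 1236), against 144 over the 3234 occupied protein-coding genes. Over pairs of a summit and a gene, 75% of the members' 16 summits were upstream of the TSS, with a median position of -58 bp, against 82.3% and -127 bp for all protein-coding genes. Of the 16 summits, 12 belong to peaks exactly 364 bp wide, so their widths say little of the extent of binding. The strongest peak lay within 500 bp of another gene's TSS at 8 of the 14 occupied members (57.1%), against 56.1% of occupied protein-coding genes. The member was the gene with the nearest TSS in 9 of the 16 pairs (56.3%), against 72.6% of such pairs over all protein-coding genes. Where 2 genes were equally near, the order of their symbols decided. This counted against eIF3a, tied with CG1074, and against both summits of eIF4G2, tied with CG33111. The 9 pairs therefore understate those in which no other gene was nearer, and the 2 shares cannot be compared.

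Distances beyond the promoter spread widely. The nearest conservative summit was a median of 2984 bp from a TSS over the 44 members, against 4966 bp over all protein-coding genes. The first quartile was 160 bp for members and 703 bp for all protein-coding genes, and the third quartile was 19479 bp for members and 14445 bp for all. Thus the members were nearer at the short end and farther at the long end, with 11 members (25%) more than 20000 bp away, against 18.5% of all protein-coding genes. Inside their transcribed regions, 6 members (13.6%, against 15.7% of all protein-coding genes) held 18 conservative summits, and 5 of these were intronic peaks of eIF4EHP, of which the strongest, 9779 bp downstream, had a signal of 310.

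**Figure D4:**
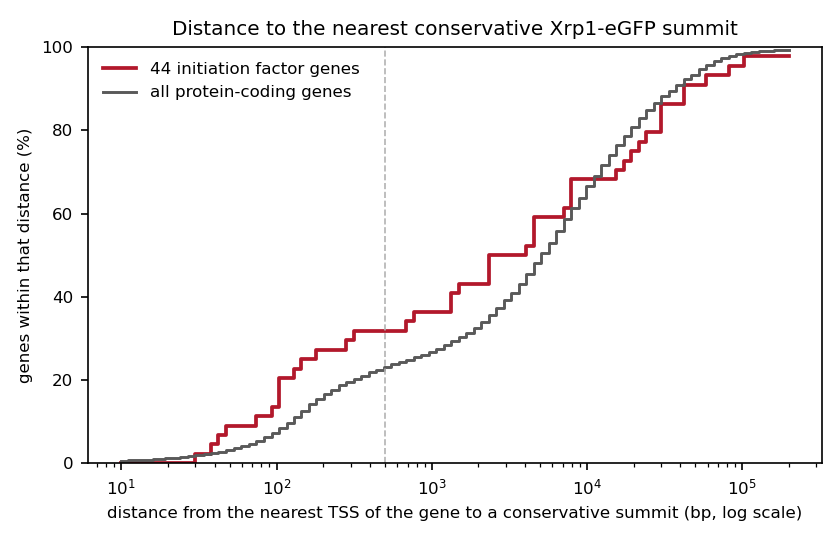
Percentage of genes (y axis) with a conservative summit within a given distance of a TSS (x axis, bp, log scale) for the 44 initiation factor genes (red) and all protein-coding genes (grey). The dashed line marks 500 bp, where the curves stand at 31.8% and 23.2%, and farther out the red curve falls below the grey one.

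Motifs of bZIP factors were not found close to the members' summits. The motifs were the 6 given for eIF4EHP, searched on both strands, and a TTGCGCAA also counts as a TTGCNNAA. Within 50 bp of the summit on either side, 0 of 16 member peaks held any of the 6, against 13.99% of the 2737 conservative peaks at protein-coding promoters and 13.0% of all 7534. TGACTCA was likewise found in 0 of the 16, against 0.694% of the promoter peaks. Within 100 bp on either side, 3 member peaks (18.8%) held one, against 26.2% of the promoter peaks. In promoters as a whole, from 250 bp upstream to 50 bp downstream of a gene's 5' end, TTGCNNAA occurred in 18 of 44 members (40.9%), against 22.8% of all protein-coding genes. TTGCNNCA occurred in 5 of 44 (11.4%, against 15.4%), and each of the other 4 bZIP motifs in 0 of 44, against 0.402% to 0.817% of all protein-coding genes. The G and C content of the windows of 50 bp on either side had a median of 44.1% over the 16 member peaks, against 32.7% over the promoter peaks, and it ran from 19.8% at eIF1A to 57.4% at eIF3a.

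The DNA replication-related element (DRE), TATCGATA, was found within 50 bp of more of the members' summits than any other of the 12 motifs searched on both strands. Within 25 bp it was found at 1 summit, as was GGTCACAC. It is its own reverse complement and is known in Drosophila as the site of the factor DREF at promoters of genes for growth and replication. It lay within 50 bp of the summit in 3 member peaks, those of eIF1, eIF2A and eIF3a (18.8% of 16, against 2.96% of promoter peaks), and in eIF3a it was centred on the summit. Promoters from 250 bp upstream to 50 bp downstream of the gene's 5' end held it in 12 of 44 members (27.3%, against 9.36% of all protein-coding promoters). Of the 12 members with a DRE in that stretch, 4 were occupied (33.3%), and of the 32 without one there, 10 were occupied (31.3%). These 10 include eIF1 and eIF2A, 2 of the 3 members with a DRE near the summit, since that DRE lies outside the stretch. Over all protein-coding genes these shares were 35.8% with a DRE and 21.9% without. The pyrimidine run CTTTTC, searched on the gene's strand within 10 bp of a TSS, occurred in 1 of 44 members, eIF3f1 (2.27%, against 1.23% of all protein-coding genes).

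The following dm6 sequences, from the RefSeq reference and written 5' to 3' on the strand of the named gene with each DRE in capitals, are shown to set summits with and without a DRE beside them next to promoters that hold a DRE and were not occupied. The occupied ones are the bases around the conservative summits of eIF3a (chr3R:4433896-4433964, minus strand), eIF1 (chr3L:3223039-3223119, plus strand), eIF2D (chr3R:29151823-29151903, minus strand) and eIF1A (chr3R:18274525-18274605, plus strand).
eIF3a: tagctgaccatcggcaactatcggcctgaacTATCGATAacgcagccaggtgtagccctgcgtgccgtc
eIF1: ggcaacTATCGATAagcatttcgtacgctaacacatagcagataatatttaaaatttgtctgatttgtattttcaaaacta
eIF2D: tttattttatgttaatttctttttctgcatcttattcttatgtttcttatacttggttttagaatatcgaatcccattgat
eIF1A: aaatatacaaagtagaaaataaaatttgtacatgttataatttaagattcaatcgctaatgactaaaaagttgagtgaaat
Examples of DREs in promoters that were not occupied are given with 14 bases on either side, for eIF2gamma (chr3R:15263514-15263549, minus strand) and eIF4A (chr2L:5981698-5981733, plus strand). The eIF2gamma DRE shown is centred at -73 bp from the gene's 5' end. Others in that promoter, centred at -92 and -5 bp, are not marked.
eIF2gamma: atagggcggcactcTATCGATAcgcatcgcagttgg
eIF4A: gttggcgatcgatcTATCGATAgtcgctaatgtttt
The DRE is thus present on both sides of the call, and the windows of eIF2D and eIF1A hold no DRE and 23.8% and 19.8% G and C, below the 57.4% of eIF3a and the 32.7% of eIF1. These were the lowest values of any member window. Windows without a DRE ran up to 52.5% at the weaker eIF3h summit, so the sequences shown do not set a DRE against low G and C. The promoter of eIF1A does hold a DRE farther out, centred at -198 bp from the gene's 5' end.

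Other genes of protein synthesis give the setting of these counts. Occupied genes were 14 of the 44 initiation factor genes (31.8%), 44 of 92 cytosolic ribosomal protein genes (47.8%), 13 of 20 cytosolic aminoacyl-tRNA synthetase genes (65%) and 7 of 11 genes for elongation, termination or ribosome rescue (63.6%). By replicate 2's own list the counts were 7 of 44 (15.9%), 26 of 92 (28.3%), 7 of 20 (35%) and 5 of 11 (45.5%). The share of all protein-coding genes in that list was 14.6%, to which the initiation factor genes were the nearest. Partners and regulators of initiation that are not named eIF numbered 8 occupied of 18 (44.4%), against the same 23.2% of all protein-coding genes. For them the replicates' own lists gave 5 of 18 in replicate 1 (27.8%, against 23.0%) and 3 of 18 in replicate 2 (16.7%, against 14.6%), both near the share of all genes.

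Several of these partners act on the members' proteins. Gcn2, a kinase of eIF2alpha, had a summit 248 bp upstream with a signal of 263, and 135 in replicate 1 and 129 in replicate 2, although Ugt35D1 was nearer. NAT1, a relative of eIF4G, had 150 at 146 bp upstream. Thor, which encodes the 4E-BP that blocks eIF4E, had 125 at 40 bp downstream, with 74.9 in replicate 1 and 58.4 in replicate 2. pix, an ATPase of ribosome recycling, had 130, with Srp68 nearer. Weaker peaks lay at Pdcd4 (77.2), pAbp (65.9) and bel (63.9), and these 3 were in neither replicate's thresholded list. At crc, the Drosophila ATF4, the conservative peak 381 bp upstream had a signal of 28.5. The replicate peaks that overlap it had 60.8 in replicate 1 and 42.6 in replicate 2, were in both thresholded lists, and had summits at -143 and -260 bp from it along the chromosome. Among the later steps, the release factor genes eRF1 and eRF3 had 222 and 210, and the rescue genes pelo and HBS1 had 202 and 92.7. The elongation factor genes eEF1gamma, eEF2 and eEF1alpha1 had 152, 103 and 77.0. ERp60 was nearer to the eEF1alpha1 summit, and that peak too was in neither replicate's thresholded list.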

How the data were processed

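ChIP-seq peaks were analysed from 2 biological replicates of 1 group. Reads were aligned to dm6 and peaks called with a control, per the deposited notes; the software for either step is not given in the sources used here. Peaks had passed through the irreproducible discovery rate (IDR) procedure, which orders peaks by their recurrence. Used here were the conservative list (7537 peaks), the authors' other thresholded list of both replicates (8735), the replicates' own thresholded lists (7520 and 4402) and ranked lists without a cut. The deposited signal is each peak's strength as the authors computed it, with no statement on scaling to depth. The deposited score follows -log10 of the global IDR, which the ranked lists hold by the file's format. The authors' summit offset gave each summit. Signals rank peaks within a list, and only the conservative and ranked lists of the replicate comparison share values. Age followed the sample descriptions, since the age label does not match them, and the descriptions name an anti-GFP antibody where the antibody label reads Xrp1.

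Genes, TSSs and UTRs came from Ensembl release 115 and sequence from the RefSeq dm6 assembly. Summits were assigned to every gene with a TSS within 500 bp. Every member is named, with neighbours whose TSS lies within 500 bp of the strongest summit given for it, and the partner genes listed. Members, lists and motifs were chosen with earlier results of these data known. No set test was made. Peaks outside the 6 arms were left out. Assignment and motif search were tested on simulated data. Alternatives changed the distance, list, IDR, TSS and window. A global IDR of at most 0.01 was added after the data were seen. Python 3.11.15, NumPy 2.4.6, pandas 2.3.3 and matplotlib 3.10.9 were used.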

Additional observations from a re-analysis of the deposited data

Results flagged for a closer look

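The peak 238 bp upstream of eIF4EHP stood out because it is strong in data that the count of occupied members does not use. Its signal was 1342, rank 49, when the replicates were compared without a threshold, with a signal of 897 in replicate 1 and 449 in replicate 2, and it was absent from all 4 thresholded lists used here. The authors' control entered the peak calls, and no peak list of it was used here. The cause of its absence was not tested.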

How the results depend on the processing

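The 14 occupied members, against 23.2% of all protein-coding genes, were counted again under other settings. With each replicate's own list the members numbered 7 to 14, and the share of all protein-coding genes was 14.6% to 23.0%; the lower values are those of replicate 2, whose list is shorter and lacks eIF1, eIF1A, eIF2beta, eIF3b, eIF3h, eIF3k and eIF4G2. The 10 other settings gave 10 to 19 members, within 1.5 times the count, beside shares of 17.5% to 33.3%. The fewest came where a summit counts only for its nearest TSS, which leaves out eIF1, eIF3b, eIF3m and eIF6. A global IDR of at most 0.05 gave 19 members and 30.2%, and added eIF2Balpha, eIF2Bdelta, eIF2gamma, eIF3f1 and eIF4EHP. Member peaks with a bZIP motif numbered 0 within 50 bp of the summit on either side, 0 within 25 bp and 3 within 100 bp. No paired analysis was possible because the study has 1 group. The read depth is unknown, so a member without a conservative peak may have one that was not detectable. Some members belong to the same gene families, so they are not independent, and several share a promoter with a gene that is not a member. No test of the counts was made.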

Other observations

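The 5 conservative intronic peaks of eIF4EHP lay 9171 to 39977 bp downstream of its TSS, with signals from 66.9 to 310. The nearest annotated TSSs to them were those of Syx1A and SMC1. eIF4G2 held an intronic peak 1002 bp downstream with a signal of 73.9, and 54.4 in replicate 1 and 26.6 in replicate 2. Of the intronic peaks of eIF5B, 4 had sty as the gene with the nearest TSS, 7902 to 13740 bp away.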
